A study of Mus musculus with 12 samples.

Results

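The microRNA genes described here are the 286 genes, of 19938 genes measured on the arrays, whose probe was annotated to a single gene with a symbol starting in Mir and a digit or in Mirlet7. The pluripotency clusters miR-302 to miR-367 and miR-106a to miR-363 (5 measured genes each) were left out of the members and serve only for comparison. Host transcripts, whose symbols end in hg, were left out as well. Members were picked by symbol, but the rule was set with earlier results of these data known. Only 1 of the members (Mir713) had more than 1 probe.

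The cells were mouse epiblast stem cells (EpiSCs), pluripotent cells that resemble the epiblast after implantation, of genetic background 129; another label calls them embryonic stem cells. All cells were starved for 12 h in serum-free medium, and the recorded growth protocol names 10% serum. The total RNA of each of 12 samples, carrying a biotin label, was read on its own 1-colour Affymetrix array, giving 4 groups of 3. Untreated cells received neither compound, CHIR cells received 3 µM CHIR99021, XAV cells received 2 µM XAV939, and CHIR_XAV cells received both compounds at those doses. The sample labels give 2 h for every treatment, whereas the series' design text gives 2 h for CHIR and 4 h for XAV. No genetic change is recorded for any group. Whether the 3 replicates of a group came from separate cultures is not stated, and the p-values reflect the scatter among replicates, which could be purely technical.

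MicroRNAs are short RNAs cut from a hairpin inside a longer primary transcript, first by Drosha and DGCR8 in the nucleus and then by Dicer in the cytoplasm. Loaded on an Argonaute protein, a microRNA pairs with messenger RNAs mainly through its seed, the stretch of bases near its 5′ end, and lowers their translation or stability. MicroRNA genes that lie close together are often cut from 1 shared primary transcript. CHIR99021 inhibits glycogen synthase kinase 3 and so stabilises β-catenin, the nuclear effector of canonical Wnt signalling, and XAV939 inhibits tankyrase, stabilises Axin and so promotes the breakdown of β-catenin. An array signal at a microRNA gene is a signal at that locus: which of the primary, precursor and mature forms each probe read is not given in the sources used here.

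The 2 members called with CHIR belong to the miR-17-92 cluster. The sequences that show how this cluster relates to the excluded X-linked miR-106a to miR-363 cluster are printed here with the seed (bases 2 to 8) in capitals. All are mature mouse sequences from RefSeq (GRCm38.p6), which matched 248 of the 286 members and left 38 without a hairpin sequence.
miR-17-5p: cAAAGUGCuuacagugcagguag
miR-18a-5p: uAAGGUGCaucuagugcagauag
miR-19a-3p: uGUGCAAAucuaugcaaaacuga
miR-20a-5p: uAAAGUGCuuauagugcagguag
miR-19b-3p: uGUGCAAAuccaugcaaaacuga
miR-20b-5p, from the excluded cluster: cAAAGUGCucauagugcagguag
miR-106a-5p, from the excluded cluster: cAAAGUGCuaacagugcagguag
The seed AAAGUGC was held by 4 members (Mir17, Mir20a, Mir93 and Mir106b) and also by Mir20b and Mir106a of the excluded cluster. The seed GUGCAAA was held by Mir19a and Mir19b-1. Mir19b-1 on chromosome 14 and the excluded Mir19b-2 on chromosome X give an identical mature miR-19b-3p, and the longest run of bases that their hairpins share is 25. The longest run shared by Mir20a and Mir20b is 14 bases, and by Mir17 and Mir106a 13 bases. Probe sequences were not used here, so how far the probes of such look-alike genes read each other's RNA was not tested.

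Mir20a and Mir19b-1 are direct neighbours, shown here because they are the members called with CHIR. On GRCm38.p6 the Mir20a hairpin lies at chr14:115044157-115044263 and the Mir19b-1 hairpin at chr14:115044305-115044391, both on the plus strand. The window chr14:115044140-115044439 (plus strand, 300 bases) spans both, with the 107 bases of Mir20a and the 87 bases of Mir19b-1 in capitals and 41 bases between them.
Mir20a to Mir19b-1: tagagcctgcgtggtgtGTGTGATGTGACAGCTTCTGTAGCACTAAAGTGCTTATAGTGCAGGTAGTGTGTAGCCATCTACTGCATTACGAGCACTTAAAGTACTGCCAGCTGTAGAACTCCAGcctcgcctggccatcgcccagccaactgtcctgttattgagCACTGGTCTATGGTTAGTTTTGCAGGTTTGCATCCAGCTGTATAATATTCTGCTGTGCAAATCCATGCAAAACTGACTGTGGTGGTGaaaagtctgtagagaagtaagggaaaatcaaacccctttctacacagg
The RefSeq start of Mir17hg, the gene named as the cluster's host, is base 115044390. It lies within this window, at the end of the Mir19b-1 hairpin, so the Mir20a hairpin lies outside Mir17hg on this annotation.

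The mature sequences of the 3 members called lower with XAV or with both compounds are printed next, again with the seed in capitals.
miR-139-5p: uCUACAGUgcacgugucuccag
miR-129-5p: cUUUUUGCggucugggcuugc
miR-24-3p: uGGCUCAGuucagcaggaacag
Their hairpins lie at chr7:101475376-101475443 (Mir139), chr6:29022619-29022691 (Mir129-1) and chr8:84208815-84208921 (Mir24-2), all on the plus strand of GRCm38.p6.

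Most members did not exceed a background level set by genes that these cells are not known to use. The background level was set at 4.945 on the log2 scale, the 95th percentile of the mean levels of 1194 olfactory and vomeronasal receptor genes, which serve the sense of smell. Of the 286 members, 92 (32.2%) lay above it and 194 did not, whereas 11594 of all 19938 genes (58.2%) did. The members' levels, each a mean over 12 arrays, ran from 3.41 to 10.18, with a median of 4.57, above the receptor genes' median of 4.257. The members just inside the limit were Mir3107 (4.960), Mir669c (4.962) and Mir17 (4.967), and those just outside it Mir326 (4.944), Mir681 (4.914) and Mir138-1 (4.904). Array probes differ in brightness, so the order of these signals is not an order of abundance, and each gene is set only against the background.

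The 12 members with the strongest signal were Mir377 (10.18), Mir692-1 (8.89), Mir382 (8.61), Mir341 (8.11), Mir134 (7.99), Mir667 (7.82), Mir6516 (7.63), Mir18 (7.15), Mir598 (7.09), Mir19a (6.96), Mir485 (6.93) and Mir139 (6.90). Of these, Mir377, Mir382, Mir341, Mir134, Mir667 and Mir485 lie in the Dlk1-Dio3 region of chromosome 12, an imprinted region whose microRNAs are made from the maternal chromosome. That region held 40 measured members, of which 27 (67.5%) lay above background, with a median level of 5.51. Outside it, 65 of 246 members (26.4%) lay above background, with a median level of 4.45.

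Within the Dlk1-Dio3 region the signal was spread over all 3 of its groups of neighbouring hairpins (neighbours at most 10000 bases apart on 1 strand). From Mir379 to Mir369, 21 of 30 measured members were above background, with levels from 4.255 to 10.18. From Mir673 to Mir136, 5 of 8 were above background, with Mir127 the highest at 6.56. Of Mir341 and Mir370 only Mir341 was above it. The long non-coding transcripts of the same strand were also present, Meg3 at a level of 10.0 and Rian at 7.22, and the paternally expressed genes Dlk1 and Rtl1 read 7.92 and 5.52, whereas Dio3 read 3.98, below background.

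**Figure D1:**
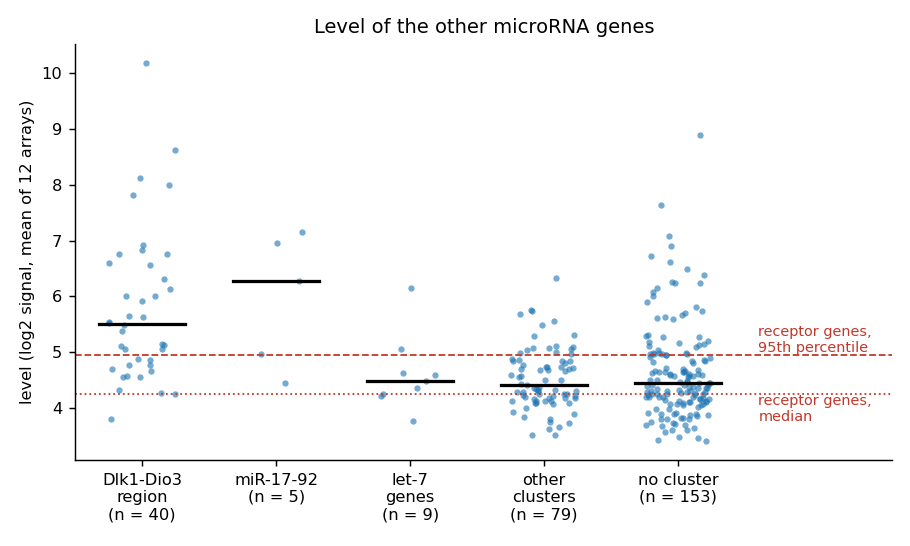
Level of each of the 286 members (log2 signal, mean of 12 arrays; 1 point per gene, horizontal bars are medians) by genomic group, with the 95th percentile (4.945) and the median (4.257) of the receptor genes as dashed and dotted lines. In the Dlk1-Dio3 region 27 of 40 genes lie above the dashed line and in miR-17-92 4 of 5, whereas 2 of 9 let-7 genes do.

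No gene of the miR-290 cluster was among the members, so that cluster was not analysed here. Of the 9 let-7 genes, whose mature products accumulate when cells differentiate, 2 (22.2%) were above background, a share near that of all members outside the Dlk1-Dio3 region, Mirlet7d at 6.15 and Mirlet7f-1 at 5.06, and the let-7 levels ran down to 3.78 at Mirlet7c-1. Mir98, which shares the let-7 seed GAGGUAG, read 5.32. Lin28a, the RNA-binding protein that blocks let-7 maturation, read 9.85, and a signal at a let-7 locus does not tell how much mature let-7 was present.

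None of the 3 members of the cluster of Mir183, Mir96 and Mir182 was above background, with levels of 3.53, 4.17 and 3.73. The same held for Mir200a (4.73) and Mir200b (4.69) and for Mir200c (4.29) and Mir141 (4.13), which keep epithelial cells from turning mesenchymal. In the miR-15a/16-1 cluster, which restrains the cell cycle, Mir15a read 6.32 and Mir16-1 read 4.69, below background. In miR-106b-25, which lies in an intron of the replication gene Mcm7, only Mir25 (5.74) was above background while Mcm7 itself read 11.58. None of the 5 members from Mir500 to Mir532 on the X chromosome was above it, with Mir188 the highest at 4.57.

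Most members inside a gene that was above background were not above background themselves, as held for most members of any kind. For 90 members a measured gene spanned the hairpin on the same strand, 71 different hosts in all, of which 53 were above background. Of the 67 members whose host was above background, 16 were so themselves, beside 92 of all 286 members (32.2%) and 26.4% of those outside the Dlk1-Dio3 region. Of the 23 members whose host was not, 2 were. Mir33 is an example, at 3.46 inside Srebf2, the regulator of sterol synthesis, at 10.15.

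With CHIR, the members' clearest change was a rise of 2 neighbouring genes of miR-17-92, the cluster known for promoting proliferation. The test compared the 6 arrays given CHIR (alone or with XAV) with the 6 arrays not given it, in a limma moderated test over all 19938 genes with Benjamini-Hochberg adjustment, called at an adjusted p under 0.05. Both called members rose, whereas no member was called lower. These 2 of 286 members are a smaller share than the 318 of all 19938 genes (1.59%) called in either direction. In the same test all 10 genes of the excluded clusters rose, by 0.49 to 0.90 on the log2 scale.

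Mir19b-1 read 6.34, 6.19 and 6.03 in the untreated arrays and 6.54, 6.68 and 6.52 with CHIR. It read 5.95, 6.12 and 5.89 with XAV and 6.32, 6.20 and 6.49 with both compounds. All 3 CHIR arrays lay above all 3 untreated arrays, all 3 arrays with both compounds lay above all 3 XAV arrays, and over the 6 against 6 the ranges overlapped. The rise with CHIR was 0.37 on the log2 scale (SE 0.069, limma adjusted p = 0.0106), a 1.29-fold higher signal. It was 0.39 in the absence of XAV and 0.35 in its presence, and neither of these single comparisons of 3 against 3 was called (limma adjusted p = 0.105 and 0.204).

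Mir20a read 4.32, 4.36 and 4.36 in the untreated arrays and 4.41, 4.63 and 4.60 with CHIR. It read 4.19, 4.12 and 4.37 with XAV and 4.70, 4.54 and 4.71 with both. The 6 arrays with CHIR all lay above the 6 without it. The rise was 0.31 (SE 0.0605, limma adjusted p = 0.0127), or 1.24-fold, but the gene's mean level of 4.44 is below the background level. Without untreated replicate 3 and XAV replicate 2, the arrays with the narrowest spread of values, its adjusted p was 0.0611.

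The other measured members of the cluster were not called but had positive differences in the same test. Mir18 was 0.22 higher with CHIR (SE 0.118, limma adjusted p = 0.426), Mir19a 0.20 (SE 0.0919, adjusted p = 0.333) and Mir17 0.15 (SE 0.102, adjusted p = 0.546). The median difference over the 5 genes was 0.22, beside -0.03 over all members and -0.005 over all genes. For CHIR alone against untreated, 3 of the 5 genes had a positive difference (range -0.04 to 0.39). For both compounds against XAV all 5 did (0.28 to 0.47). For XAV alone against untreated all 5 were negative (-0.42 to -0.12). These 3 genes scattered more between replicates than the called pair: the XAV arrays of Mir18 read 7.26, 6.66 and 6.56, and those of Mir17 read 5.10, 4.48 and 4.58.

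Mir17hg, whose symbol names it as the host gene of the cluster, differed by 0.08 with CHIR (SE 0.122, limma adjusted p = 0.819). Its RefSeq start lies at the end of the Mir19b-1 hairpin, so on this annotation it spans none of the 5 measured hairpins. Whether the Mir17hg probe reads their primary transcript was not tested. Mir17hg read 6.70, 6.96 and 6.86 untreated, 6.67, 7.11 and 6.90 with CHIR, 6.84, 6.01 and 6.36 with XAV and 6.27, 6.79 and 6.48 with both. Its arrays with and without CHIR overlapped throughout. For XAV its difference was -0.41 (SE 0.122, limma adjusted p = 0.119), and the 5 cluster members differed by -0.22 (Mir19b-1) to -0.01 (Mir20a), none called. The difference between Mir19b-1 or Mir20a and Mir17hg was not tested.

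**Figure D2:**
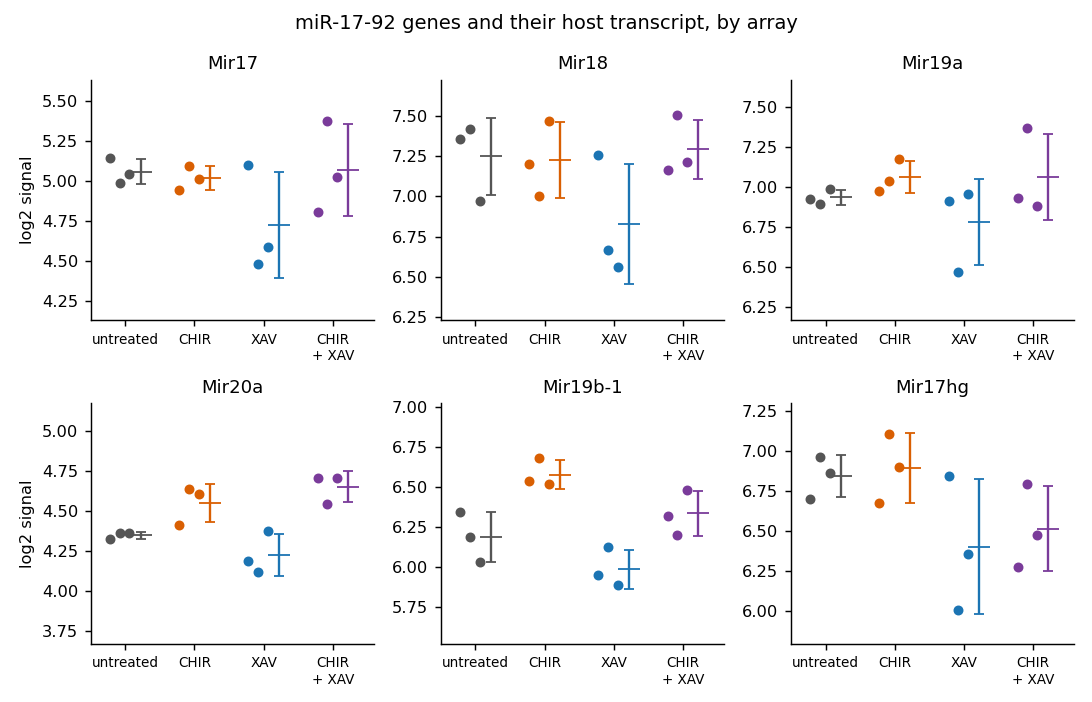
Log2 signal of the 5 measured miR-17-92 genes and of Mir17hg on each of the 12 arrays (points), with the mean and SD of each group of 3 beside them; every panel spans the same number of log2 units. Mir19b-1 and Mir20a sit higher in the CHIR group than in the untreated group and higher with both compounds than with XAV, whereas Mir17hg overlaps between them.

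The cluster's X-linked relatives moved further. Mir20b was 0.83 higher with CHIR, Mir19b-2 0.90 and Mir106a 0.85, compared with 0.31 for Mir20a, 0.37 for Mir19b-1 and 0.15 for Mir17 (log2 differences of the same 6 against 6 arrays). Mir19b-2 read 5.76, 6.64 and 6.42 untreated and 7.17, 7.11 and 7.46 with CHIR. The 25 shared bases of Mir19b-1 and Mir19b-2 are given beside this because the part of shared sequence in the rise of Mir19b-1 was not tested.

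**Figure D3:**
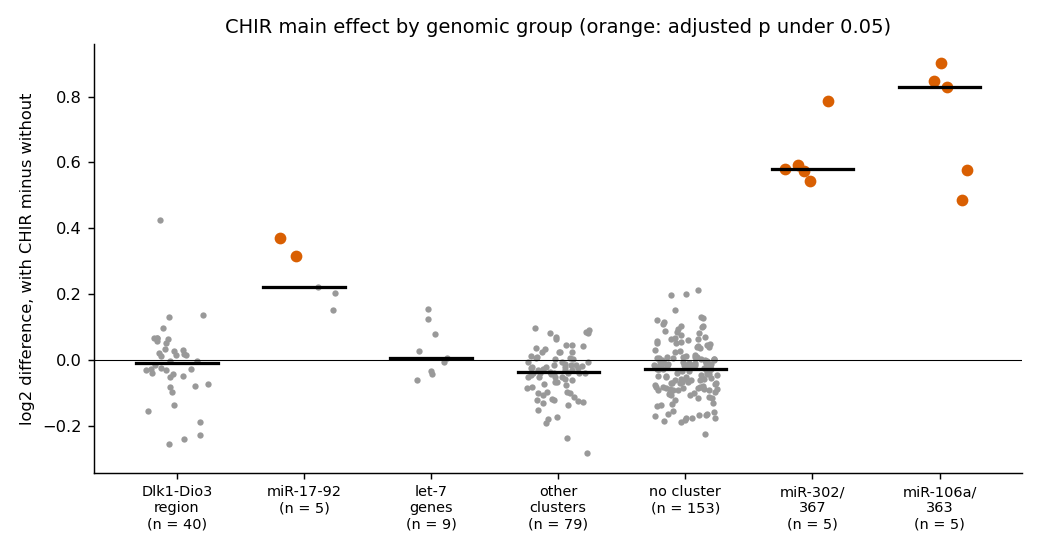
Log2 difference between the 6 arrays with CHIR and the 6 without for every member by genomic group and for the excluded clusters (1 point per gene, bars are medians, orange points have an adjusted p under 0.05). The medians are 0.22 for miR-17-92, -0.01 for the Dlk1-Dio3 region and 0.83 for miR-106a to miR-363.

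No other member was called with CHIR in this comparison of 6 against 6 arrays. The largest positive difference of any member, above those of the called pair, was at Mir369, the last measured microRNA gene of the Dlk1-Dio3 region. It was 0.42 (SE 0.105) and missed the threshold (limma adjusted p = 0.0563). Mir369 read 5.44, 5.74 and 5.68 untreated, 5.67, 5.95 and 6.25 with CHIR, 5.29, 5.56 and 4.94 with XAV and 5.75, 5.90 and 5.67 with both, so the untreated and CHIR arrays overlapped. Over all 40 members of the region the median difference was -0.01, with 18 positive. Meg3 differed by 0.002 and Rian by 0.02.

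Above background, the next positive difference after Mir369, Mir19b-1, Mir18 and Mir19a was 0.20 at Mir7-1, a microRNA in an intron of Hnrnpk. The most negative were -0.28 at Mir25, -0.26 at Mir329, -0.23 at Mir129-1, -0.19 at Mir673 and -0.18 at Mir9-1, none called (limma adjusted p from 0.0871 to 0.391). Mir25 read 5.74, 5.99 and 6.31 untreated against 5.73, 5.62 and 5.59 with CHIR, and its own untreated replicates spread over more than the difference. Below background, Mir24-2 differed by -0.24 (adjusted p = 0.0835). At an unadjusted p under 0.05, 26 members (9.09%) were lower and 7 (2.45%) higher with CHIR, beside 7.01% lower and 6.98% higher among all genes. Among the 6147 genes of any kind within the members' interquartile range of level (4.19 to 5.09), 8.44% were lower and 1.76% higher, near the members' shares.

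CHIR alone against untreated called no member by limma, where 0.421% of all genes were called. At an unadjusted p under 0.05 it held 24 members (8.39%), beside 10.3% of all genes. The smallest p after Mir19b-1 belonged to Mir200b, at -0.29 (SE 0.0838, adjusted p = 0.175), and to Mir129-1, at -0.30 (SE 0.0881, adjusted p = 0.191). Mir200b has a mean level of 4.69, below background. Both compounds against XAV likewise called none by limma, with 0.236% of all genes called, and held 20 members (6.99%) at an unadjusted p under 0.05, beside 9.69% of all genes. The smallest p there was that of Mir20a (difference 0.43, SE 0.0855, adjusted p = 0.0544), before Mir19b-1 and Mir7b (difference -0.31, SE 0.0883, adjusted p = 0.216).

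With XAV, 1 member was called, and it fell: Mir139, which has been described as a restrainer of growth and invasion in several cancers. In the comparison of the 6 arrays given XAV with the 6 not given it, Mir139 was lower by 0.32 on the log2 scale (difference -0.32, SE 0.0651, limma adjusted p = 0.0468), 0.801 times the signal. This 1 of 286 members is a share near that of all genes, of which 66 of 19938 (0.331%) were called. Mir139 read 7.24, 7.21 and 7.08 untreated and 6.77, 6.71 and 6.87 with XAV. It read 6.89, 7.06 and 6.90 with CHIR and 6.54, 6.66 and 6.90 with both. The untreated and XAV arrays did not overlap, whereas the highest array with both compounds reached the lowest CHIR array. The call was lost in 13 of 19 alternative analyses, among them the omission of any single array other than CHIR_XAV replicate 3, with adjusted p up to 0.141.

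Mir139 lies in an intron of Pde2a, a phosphodiesterase gene, which did not follow it. The Pde2a level was 6.31 untreated and 6.51 with XAV, and its difference over the 6 against 6 arrays was 0.16 (SE 0.0733, limma adjusted p = 0.286). For both compounds against untreated the difference was -0.48 at Mir139 and 0.33 at Pde2a (SE 0.104, adjusted p = 0.109). The difference between gene and host was not tested.

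Besides Mir139, the most negative XAV differences among members above background were those of Mir377 (-0.34, beyond that of Mir139), Mir23a (-0.30), Mir598 (-0.28) and Mir369 (-0.27), none called (limma adjusted p from 0.0590 to 0.206). Mir377, the brightest member, read 10.31, 10.57 and 10.34 untreated, 10.15, 10.32 and 10.42 with CHIR, 10.29, 9.84 and 10.02 with XAV and 9.92, 10.00 and 9.98 with both compounds. Its 3 arrays with both compounds lay below all arrays without XAV, but the XAV arrays overlapped the CHIR ones. The most positive differences were 0.21 at Mir329, 0.21 at Mir679, 0.17 at Mir541, 0.16 at Mir466 and 0.15 at Mir127. Apart from Mir466 these lie in the Dlk1-Dio3 region, whose median difference was -0.06 with 17 of 40 positive.

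XAV alone against untreated called no member by limma and 0% of all genes. At an unadjusted p under 0.05 it held 37 members (12.9%), near the 11.2% of all genes. After Mir139 the smallest p were those of Mir598 (difference -0.33, SE 0.0847, adjusted p = 0.226) and Mir101b (difference -0.36, SE 0.101, adjusted p = 0.259). Both compounds against CHIR called no member by limma and 0.0251% of all genes. At an unadjusted p under 0.05 it held 26 members (9.09%), beside 11.0% of all genes. The smallest p there were those of Mir378a (difference -0.25, adjusted p = 0.247), Mir6516 (-0.31, adjusted p = 0.252) and Mir185 (-0.32, adjusted p = 0.281). Mir6516 read 7.83, 7.71 and 7.82 with CHIR and 7.34, 7.55 and 7.54 with both compounds, without overlap.

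With both compounds against untreated cells, 3 of 286 members were called lower, Mir139, Mir129-1 and Mir24-2, and none higher. That share is near that of all genes, of which 225 of 19938 (1.13%) were called. Mir129-1 read 5.68, 5.82 and 5.97 untreated and 5.36, 5.43 and 5.49 with both, a difference of -0.40 (SE 0.0881, limma adjusted p = 0.0425). Mir24-2, of the cluster with Mir23a and Mir27a, read 4.83, 4.89 and 5.15 untreated and 4.52, 4.57 and 4.55 with both, a difference of -0.41 (SE 0.0914, adjusted p = 0.0464), at a mean level of 4.73 that is below background. For Mir139 the difference was -0.48 (SE 0.0921, adjusted p = 0.0250). In all 3 genes the arrays with both compounds lay below the untreated ones without overlap, and the means with 1 compound lay between those of these groups.

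These 3 calls moved with small changes of the analysis. Leaving out untreated replicate 2 or 3, or CHIR_XAV replicate 1 or 2, left no member called in this comparison. Mir139 was also lost without untreated replicate 1, and its adjusted p reached 0.0995 across the alternatives. Mir129-1 was also lost without CHIR replicate 1, XAV replicate 1 or CHIR_XAV replicate 3, with adjusted p up to 0.173. Mir24-2 was lost without those same arrays and without XAV replicate 3, with adjusted p up to 0.183. All 3 were lost when only the groups compared were fitted, and Mir129-1 and Mir24-2 also after quantile normalization. In all, Mir139 was not called in 7 of 20 alternatives, Mir129-1 in 10 of 20 and Mir24-2 in 11 of 19. Mir25 (difference -0.47, adjusted p = 0.0537) and Mir377 (difference -0.44, adjusted p = 0.0555) narrowly missed the threshold.

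**Figure D4:**
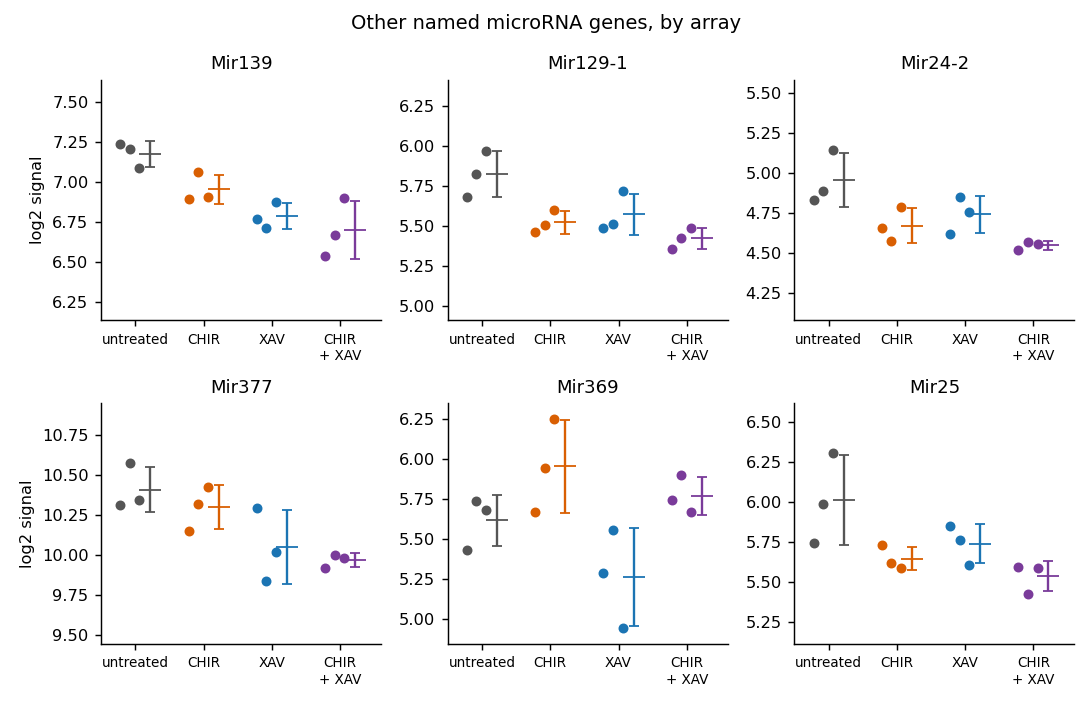
Log2 signal of Mir139, Mir129-1, Mir24-2, Mir377, Mir369 and Mir25 on each of the 12 arrays (points) with the mean and SD of each group of 3; every panel spans the same number of log2 units. Mir139, Mir129-1 and Mir24-2 are highest in the untreated arrays and lowest with both compounds, and Mir369 is higher in the CHIR than in the XAV arrays.

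The test of whether CHIR acted differently with and without XAV (the interaction) called no member by limma and 0% of all genes, and held 9 members (3.15%) at an unadjusted p under 0.05, beside 4.94% of all genes. The smallest p belonged to Mir680-2 (interaction -0.63, SE 0.183, adjusted p = 0.965), Mir301 (-0.55, SE 0.190, adjusted p = 0.965) and Mir378a (-0.24, SE 0.0959, adjusted p = 0.965). Mir301 has a mean level of 4.64, below background.

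More members had a small negative difference than a positive one, whichever compound was given. With both compounds against untreated, 196 of 286 members had a negative difference, with a median of -0.07, and at an unadjusted p under 0.05 there were 44 lower members (15.4%) and 5 higher (1.75%), beside 8.64% and 10.0% of all genes. For XAV, 46 members (16.1%) were lower and 1 (0.350%) higher, beside 7.40% and 9.53% of all genes. Among the 6147 genes of any kind whose level lay within the members' interquartile range (4.19 to 5.09), the median was -0.09 with both compounds and -0.05 with XAV, and 15.3% and 13.6% were lower at an unadjusted p under 0.05. Of those 6147 genes, 4789 had a negative difference with both compounds, beside 10489 of all 19938 genes. After quantile normalization the medians over all 286 members were -0.01 in both comparisons. For the 6147 genes they were then -0.007 with both compounds and -0.004 with XAV. Over the 92 members above background they were -0.10 with both compounds and -0.07 with XAV as deposited, and -0.09 in both comparisons after quantile normalization. The median level of these 92 was 5.62, and other genes of such levels were not compared. In bulk samples such as these, fewer cells of a type and less RNA per cell cannot be told apart.

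The XAV difference also varied with the base composition of the hairpin. Over the 248 members with a hairpin sequence, the share of G and C and the XAV difference had a Spearman correlation of -0.43 (Pearson -0.41) across genes, which share all 12 arrays and are not independent replicates. In the 62 hairpins lowest in G and C (28.4% to 42.5%) the median XAV difference was 0.03, and in the 62 highest (54.1% to 69.2%) it was -0.09, with 54 of 62 negative. The correlation was -0.40 for both compounds against untreated, -0.10 for CHIR and 0.05 for the level itself. Among the 75 of these members above background it was -0.34 for XAV and -0.35 for CHIR, and without untreated replicate 3 and XAV replicate 2 it was -0.39 for XAV and -0.26 for CHIR over all 248.

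Single arrays of 1 group disagreed in this measure. The correlation between G and C content and an array's deviation from each gene's mean was -0.30, 0.02 and 0.42 in the CHIR arrays, -0.22, -0.37 and 0.10 in the XAV arrays, -0.37, -0.17 and 0.15 with both compounds and 0.31, 0.39 and 0.14 untreated. Mir139 (58.8%) and Mir24-2 (61.7%) lie among the 62 hairpins highest in G and C and Mir129-1 (47.9%) among the 62 next to them (47.6% to 54.0%), where the median XAV difference was -0.06. The part of base composition in those falls was not tested. Mir19b-1 (43.7%) and Mir20a (45.8%), which rose with CHIR, lie among the 62 hairpins with 42.6% to 47.6% G and C, whose median CHIR difference was -0.03.

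**Figure D5:**
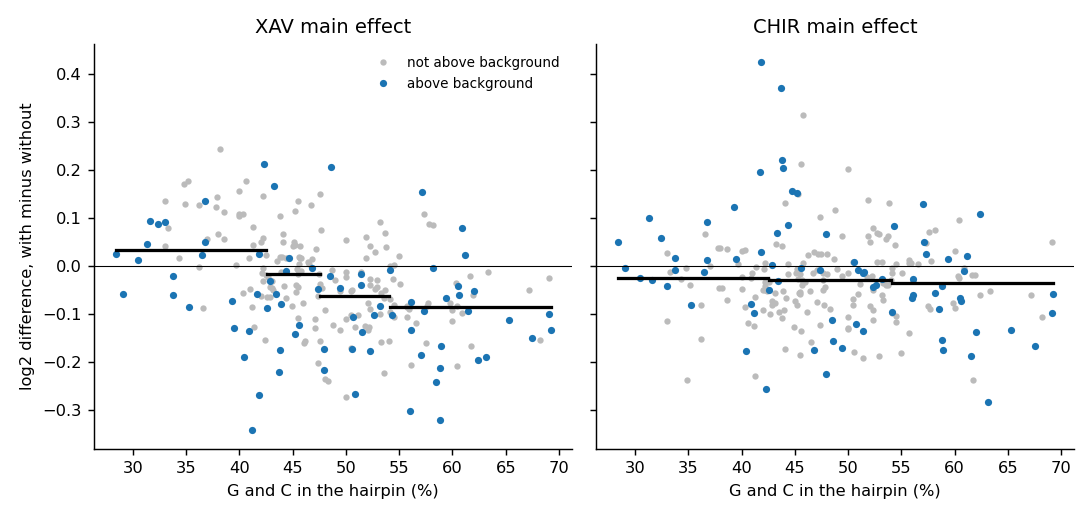
Log2 difference with XAV minus without (left) and with CHIR minus without (right) against the percent of G and C in the hairpin, 1 point per member with a hairpin sequence (n = 248, blue above background); black bars are medians of 4 equal bins by G and C with 62 genes each. The XAV medians step down from 0.03 to -0.09, whereas the CHIR medians stay between -0.04 and -0.03; among the blue points the correlations are -0.34 and -0.35.

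The genes of the machinery that makes and uses microRNAs were measured beside the members. Of 28 listed genes 27 were measured (Hnrnpa1 was not), 26 were above background and none was called in any of the 8 comparisons. Drosha read 9.86, its partner Dgcr8 9.27, the export factor Xpo5 10.66, Dicer1 9.87 and the Argonaute Ago2 9.51, whereas Ago4 (4.34) was below background. Dgcr8 had the smallest p for CHIR alone against untreated, at 9.17 untreated and 9.50 with CHIR (difference 0.33, SE 0.0831, limma adjusted p = 0.107). For both compounds against XAV, Dgcr8 differed by 0.02. Over the 6 arrays with CHIR against the 6 without, the smallest p was that of Tnrc6c (difference -0.21, SE 0.0574, limma adjusted p = 0.0861). Over the 6 arrays with XAV against the 6 without, it was that of the RNA editor Adar (difference 0.30, SE 0.0624, adjusted p = 0.0524). In these comparisons of 6 against 6 arrays the list's median difference was 0.02 with CHIR and 0.08 with XAV, beside -0.005 and -0.003 over all genes. The list's mean level ran from 8.67 to 8.68 untreated, whereas the median level of all genes was 5.43. Genes of a level like the list's were not compared.

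The cells' identity and the arrays were checked on the same values. All 10 EpiSC and pluripotency markers were above background, as were 4 of 8 naive markers, 4 of 8 fibroblast, 2 of 6 endoderm, 4 of 4 neural and none of 3 muscle markers, and with CHIR 2 naive markers (Klf2 and Tbx3) were called higher and 1 neural marker (Pax6) lower. The mean level of the fibroblast list ran from 5.09 to 5.13 untreated, 5.01 to 5.08 with CHIR, 5.04 to 5.08 with XAV and 5.01 to 5.09 with both. The part of other cells in the members' signals was not tested. Array medians ran from 5.22 to 5.27 and the SD of an array's values from 2.14 to 2.21, lowest in untreated replicate 3 and XAV replicate 2, so these were left out together as an alternative. On both of those arrays at least 105 members exceeded the background level, against 76 to 95 on the other 10.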

How the data were processed

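RNA of 12 mouse EpiSC samples was measured on 12 Affymetrix arrays with 1 colour. The authors deposited 1 table of normalized values per array on a log2 scale, as its range (2.52 to 14.28) shows; the labels state neither the base nor the background correction, and the submitters' processing notes name Partek without a version. No depth exists for arrays, so their number limits the precision. Of 35399 probes, 21789 were annotated to 1 gene, 1621 to several and 11989 were not listed; 91 of the first had no match in RefSeq (GRCm38.p6). The probe with the highest mean stood for each of 19938 genes. Group means were fitted over all genes and 12 arrays with limma 3.58.1 (R 4.3.3; lmFit, contrasts.fit, eBayes) in 8 contrasts, with p-values adjusted by Benjamini-Hochberg within each and calls at 0.05. The fit was tested on simulated data. Clusters join RefSeq microRNA genes at most 10000 bases apart on 1 strand. Members named are those called, the 3 smallest p in contrasts without a call, the 12 highest levels, the 5 largest differences in each direction above background for CHIR and XAV, and the extremes of set clusters; Mir33 and Meg3, Rian, Dlk1, Rtl1, Dio3 and Pde2a were added after their values were seen. The members and lists were chosen with earlier results of these data known. Alternatives were another normalization, filter, fit, background and the omission of arrays. Same-numbered arrays of different groups had deviation correlations from -0.247 to 0.201, 6 of 18 above 0.1, so the numbers were not taken to pair samples.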

Additional observations from a re-analysis of the deposited data

How the results depend on the processing

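The 5 called members kept their direction in all alternatives. Mir19b-1 was called in all 19 with CHIR (adjusted p 0.00399 to 0.0320) and Mir20a in 17 of 18. For CHIR, 2 members were called, 2 to 3 without each array in turn, 3 with the replicate block and 6 at an adjusted p under 0.1. For XAV, the count of 1 became 2 after quantile normalization, 5 among genes above background only, 2 with a trended robust fit, 9 with array weights, 0 with the replicate block, 0 without untreated replicate 3 and XAV replicate 2 together, 10 at an adjusted p under 0.1, and 0 to 1 without each array in turn. For both compounds against untreated, the count of 3 became 5 among genes above background only, 1 with only the groups compared (Mir377, not among those 3), 7 with array weights, 0 without those 2 arrays together (an alternative chosen after seeing the data), 15 at an adjusted p under 0.1 and 0 to 5 without each array in turn; the replicate block gave 3 and quantile normalization 2 (Mir139 and Mir377). For both compounds against XAV, the count of 0 became 1 after quantile normalization, with array weights and at an adjusted p under 0.1, and was 0 to 1 without each array in turn. CHIR alone, XAV alone, both against CHIR and the interaction gave 0 throughout. The cause of these shifts was not tested. The 92 members above background became 197 with the receptor genes' median as the limit and 51 with their 99th percentile, and were 91 to 93 without each array in turn. Of the alternatives for single members, 691 kept their side of the threshold, 42 lost it and 19 gained it. A signal near that of the receptor genes limits what these arrays can show: 194 members have no level above the 95th percentile of those genes.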

Other observations

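Mir92-1, the last gene of miR-17-92, has no probe of its own here, but a probe was annotated jointly to Mir92-1 and Mir17hg. That probe's mean level was 6.60, with 6.63 ± 0.082 untreated, 6.97 ± 0.245 with CHIR, 6.33 ± 0.217 with XAV and 6.49 ± 0.109 with both (SD, n = 3 each). Its difference with CHIR was 0.25 (SE 0.0936, limma adjusted p over all probes = 0.368) and with XAV -0.39 (SE 0.0936, adjusted p = 0.139). The CHIR value lies between those of Mir17hg (0.08) and Mir19b-1 (0.37). Of the 61 probes annotated to several genes with a microRNA gene among them, 42 were above background and 0 were called by limma in any comparison, the lowest adjusted p being 0.139.

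For both compounds against untreated, the Spearman correlation between G and C content and the difference was -0.49 among the 75 members above background with a hairpin sequence, and -0.43 over all 248 without untreated replicate 3 and XAV replicate 2. These are descriptions across genes, which share the same arrays.

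By seed, the 6 members with ACAUUCA (the miR-181 family) differed by -0.14 to -0.02 with CHIR and the 6 with AGCAGCA (miR-15, miR-16, miR-195 and miR-497) by -0.17 to 0.08, none called. Above background were 2 of the 6 with ACAUUCA and 3 of the 6 with AGCAGCA. Among the 6147 genes within the members' interquartile range of level, the median CHIR difference was -0.04.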
